A study of Mus musculus with 10 samples.

Results

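The unfolded protein response genes described here are 39 of the 34932 annotated genes in the transcript tables, taken by mouse symbol from a list of stress sensors, their transcription factors, endoplasmic reticulum (ER) chaperones and folding enzymes, and genes of ER-associated degradation. Their RNA was measured by bulk RNA-seq in 10 libraries of tumor-infiltrating CD8+ T cells, 5 MIT-BATF and 5 MIT-Empty. The cells in both groups were Pmel Thy1.2/Thy1.2 CD8+ T cells, whose transgenic receptor recognises the melanocyte antigen gp100. Donor splenocytes were stimulated for 24 h with the gp100 peptide in the presence of IL-2 (10 IU/mL), and were then transduced with the MSCV-IRES-Thy1.1 (MIT) retrovirus, which carried the mouse BATF open reading frame in MIT-BATF cells and no insert in MIT-Empty cells. The cells were then kept in IL-2 (50 IU/mL) together with IL-7 and IL-15 (10 ng/mL each). Each recipient received Thy1.1+ cells in equal number. Recipients were Ly5.1 mice that bore B16-F10 melanoma and kept their own immune cells, and the study's mice were 8 to 12 weeks old and of both sexes. On day 7 after transfer, 2000 live Thy1.1+ cells were sorted per mouse for a modified SMART-Seq2 library read in 37 bp pairs. The question was which genes differ between tumor-infiltrating cells that carry the BATF vector and those that carry the empty one.

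Proteins that enter the ER are folded by chaperones such as BiP and by disulfide isomerases, and misfolded chains are drawn back to the cytosol for degradation. When folding falls behind, 3 membrane sensors start the unfolded protein response: PERK phosphorylates the initiation factor eIF2-alpha, which slows translation while favouring ATF4; IRE1 removes a short segment from Xbp1 mRNA so that an active XBP1 protein is made; and ATF6 is cut in the Golgi to free a transcription factor. Activated T cells synthesise large amounts of secreted and surface protein, and signalling through PERK and its targets has been tied to impaired T cell function in tumors. BATF is an AP-1 family transcription factor of activated lymphocytes.

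Members were sorted by the arm with which each is usually associated. The PERK arm held 9 genes (sensor Eif2ak3, factors Atf4 and Ddit3, and the outputs Ppp1r15a, Ppp1r15b, Trib3, Asns, Chac1 and Sesn2), the IRE1 arm 7, the ATF6 arm 11, the targets shared by IRE1 and ATF6 numbered 6, and 6 genes belonged to no single arm.

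Several facts about the libraries bear on every value. Summed counts ranged from 10702740 to 34102086 in MIT-BATF libraries and from 6534472 to 21355657 in MIT-Empty libraries. In each group the counts of replicate 4 lay almost wholly within those of replicate 2, and the counts of replicate 5 within those of replicate 3: the smaller library exceeded the larger at no more than 0.661% of genes, against at least 3.54% for every other pair. The fit was therefore run on the deposited counts and again with the contained library subtracted from the one that holds it ("shared reads counted once"), and the forest plot shows both fits for every tested member, because p-values over the deposited libraries are too small if reads are shared. Batf RNA was not higher in the libraries labelled MIT-BATF (12.4, 22.6, 23.5, 24.8 and 26.5 CPM, counts scaled to a common library size) than in the libraries labelled MIT-Empty (13.5, 19.9, 36.8, 24.9 and 50.8 CPM), and whether the counting captured the vector's Batf sequence is not known, so the groups are named by their labels. Whether labels were exchanged was not tested, and every direction given here is that of the labels. CD8+ T cell markers summed to 2785 to 4714 CPM in MIT-BATF libraries and 3163 to 4965 CPM in MIT-Empty libraries. Melanoma markers summed to 14.4 to 29.5 CPM in MIT-BATF libraries and 39.7 to 1738 CPM in MIT-Empty libraries. They were highest in MIT-Empty replicates 4 and 2, the first nested in the second. With shared reads counted once the marker Tyrp1 fell from 243.0 to 10.4 CPM in MIT-Empty replicate 2. It stood at 814.4 CPM in replicate 4. All 6 markers that could be tested were called lower in MIT-BATF (edgeR adjusted p below 0.05). With shared reads counted once 2 of 5 were called lower, and all 5 had negative log2 fold changes. Among all genes tested 2.43% were called lower and 2.16% higher (0.683% and 0.575% with shared reads counted once). Macrophage markers summed to 26.2 to 83.6 CPM in MIT-BATF libraries and 42.3 to 285 CPM in MIT-Empty libraries. All 10 tested had negative log2 fold changes in both fits, and 3 were called lower in MIT-BATF (1 with shared reads counted once). B and plasma cell markers summed to 3.86 to 6.68 CPM in MIT-BATF libraries and 1.58 to 3.36 CPM in MIT-Empty libraries. Of the 2 tested 1 (Cd79b) was called higher in MIT-BATF (0 of 1 tested with shared reads counted once). Dendritic cell markers summed to 20.2 to 28.3 CPM in MIT-BATF libraries and 12.9 to 16.9 CPM in MIT-Empty libraries. With deposited counts these sums did not overlap between the groups, nor did the melanoma, B and plasma cell or fibroblast and endothelial sums. With shared reads counted once the dendritic cell sums overlapped (19.24 to 30.4 CPM in MIT-BATF and 13.98 to 20.62 CPM in MIT-Empty libraries). So did the B and plasma cell sums (3.963 to 7.184 CPM in MIT-BATF and 1.696 to 5.436 CPM in MIT-Empty libraries). The melanoma sums and the fibroblast and endothelial sums stayed apart. Of the 4 dendritic cell markers tested 3 had positive log2 fold changes and 1 a negative one in both fits. Those called higher in MIT-BATF were 2, Itgax and Xcr1 (Xcr1 alone with shared reads counted once). Fibroblast and endothelial markers summed to 6.90 to 13.96 CPM in MIT-BATF libraries and 15.9 to 108.6 CPM in MIT-Empty libraries. The 2 tested had negative log2 fold changes, and 1 (Dcn) was called lower in MIT-BATF. Erythroid markers ranged up to 488.6 CPM in MIT-BATF libraries, in replicate 2, and up to 72.9 CPM in MIT-Empty libraries. The part of these cell types in the members' values was not tested. Mitochondrial transcripts made up 33.2% of the counts of MIT-BATF replicate 1, 11.5% to 15.1% of the other MIT-BATF libraries and 15.5% to 23.1% of MIT-Empty libraries.

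The members were taken by symbol and not by the sequences below. The ER stress response element, the site at which cleaved ATF6 acts together with the CCAAT-binding factor NF-Y, has the letters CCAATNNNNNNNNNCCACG. It was searched on both strands in the 250 bases before the RefSeq start of each gene (GRCm38.p6). Of the 39 members 34 had a promoter in the RefSeq table, and 9 of those 34 (26.5%) held the element, against 35 of all 27025 genes (0.13%), the 9 members included. Genes usually associated with ATF6 are among the members, so this contrast is not independent of how the members were chosen. The matches are printed in the direction of the element with its fixed letters in capitals, from the chaperones to the degradation genes.
Hspa5: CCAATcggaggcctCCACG
Calr: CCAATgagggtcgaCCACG
Hsp90b1, nearer match: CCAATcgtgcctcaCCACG
Hsp90b1, farther match: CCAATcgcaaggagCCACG
Canx: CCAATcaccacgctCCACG
Creld2: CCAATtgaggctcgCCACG
Pdia6: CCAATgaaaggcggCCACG
Dnajc3: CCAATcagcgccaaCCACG
Syvn1: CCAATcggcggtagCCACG
Derl3: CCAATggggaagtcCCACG

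Hspa5 (BiP), Hsp90b1 (Grp94), Calr (calreticulin), Canx (calnexin), Creld2, Pdia6 and Dnajc3 (a BiP co-chaperone) serve folding, and Syvn1 (the ubiquitin ligase HRD1) and Derl3 serve degradation. Hsp90b1 carried 2 matches, with 88 and 193 bases between the match and the start. The Hspa5 match lay at chr2:34772025-34772043, with 46 bases between it and the start. The 9 members with the element had a median log2 fold change of 0.09 (MIT-BATF over MIT-Empty, -0.23 to 0.30), and the 23 tested members matched to a promoter without it also had 0.09 (-0.24 to 1.00). With shared reads counted once the medians were 0.07 in both sets.

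The promoter of Eif2ak3, the only member called, held no match to the element. The 250 bases before its start (chr6:70844265-70844514, plus strand) held 1 AP-1 heptamer, TGANTCA, shown in capitals and separated from the start by 178 bases. The same window of Hspa5 (chr2:34771840-34772089, plus strand) is shown beside it with the fixed letters of its ER stress response element in capitals. The Hspa5 window also held an AP-1 heptamer, left in lower case and separated from the start by 175 bases.
Eif2ak3: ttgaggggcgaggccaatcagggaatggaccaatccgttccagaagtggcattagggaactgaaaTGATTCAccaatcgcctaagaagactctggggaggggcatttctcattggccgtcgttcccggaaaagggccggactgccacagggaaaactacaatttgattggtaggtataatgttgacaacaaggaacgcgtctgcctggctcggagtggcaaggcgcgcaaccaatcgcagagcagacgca
Hspa5: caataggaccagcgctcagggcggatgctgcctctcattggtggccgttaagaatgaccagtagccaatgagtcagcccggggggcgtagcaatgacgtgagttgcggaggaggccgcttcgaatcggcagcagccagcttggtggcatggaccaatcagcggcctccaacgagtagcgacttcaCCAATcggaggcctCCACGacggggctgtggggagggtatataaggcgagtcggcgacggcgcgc

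The AP-1 heptamer was found in 5 of the 34 matched members (14.7%: Ddit3, Eif2ak3, Hspa5, Sec61b and Sel1l) and in 7.82% of all genes. The ATF4 response element, searched as TGATGNAA on both strands, was found in 3 members (8.82%: Asns, Chac1 and Herpud1) and in 3.91% of all genes. The CCAAT box alone, which also forms the start of the ER stress response element, was in 26 members (76.5%) and in 37.5% of all genes. No member window held TGACGTGG, the unfolded protein response element, which 0.603% of all genes held. These matches describe letters in a window and were not read as binding sites.

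Of the 39 members, 37 passed edgeR's filter on low counts and were tested in the fit across 11781 genes (edgeR's quasi-likelihood test, Benjamini-Hochberg adjusted p below 0.05). Eif2ak3 was called higher in MIT-BATF and no member was called lower. Among all genes tested, 4.58% were called in either direction, 2.16% higher and 2.43% lower. With shared reads counted once 1.26% of 11129 genes were called, 0.575% higher and 0.683% lower, and Eif2ak3 was again the single member called. The count of 1 in 37 is no result about the list. At an unadjusted p below 0.05 the count was also 1 of 37, against 18.1% of all genes tested (10.6% with shared reads counted once). DESeq2 and limma voom each called 1 member higher and 0 lower, against 8.22% of the 15308 genes to which DESeq2 gave an adjusted p and 10.7% of all genes in limma voom.

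Eif2ak3 encodes PERK, the sensor kinase that phosphorylates eIF2-alpha (chr6:70844515-70905245, plus strand, GRCm38). It stood at 46.1, 42.4, 36.1, 50.4 and 29.0 CPM in MIT-BATF libraries, against 19.6, 18.4, 24.2, 16.5 and 23.1 CPM in MIT-Empty libraries. The lowest MIT-BATF value exceeded the highest MIT-Empty value, and no other member had groups without overlap; 3.28% of all genes tested were without overlap in that direction and 3.17% in the other. The means were 40.8 ± 8.43 CPM in MIT-BATF libraries and 20.4 ± 3.24 CPM in MIT-Empty libraries (SD, n = 5 each), and the log2 fold change was 1.00 (SE 0.17, 95% interval 0.63 to 1.37, edgeR adjusted p = 0.00407).

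With shared reads counted once Eif2ak3 stood at 49.4, 39.9, 44.4, 54.2 and 31.2 CPM in MIT-BATF libraries, against 21.1, 21.0, 27.1, 17.8 and 24.8 CPM in MIT-Empty libraries. The groups were again apart, as for 1.63% of all genes in that direction and 1.56% in the other, and the log2 fold change was 0.97 (0.56 to 1.37, edgeR adjusted p = 0.0195). A single annotated transcript held between 92.25% and 97.49% of the gene's reads in every library. The level of the gene per length, summed over its transcripts, was a mean of 7.25 TPM (transcripts scaled by length and by library total) in MIT-BATF and 3.51 TPM in MIT-Empty libraries. In bulk RNA a higher share of cells that express a gene and more RNA per cell cannot be told apart.

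The size of the Eif2ak3 difference moved little between processing choices, whereas its call moved. Over 35 settings the log2 fold change lay between 0.86 and 1.10, and 29 settings were past the threshold. Leaving out the containing replicates 2 and 3 of both groups gave 1.08 with edgeR adjusted p = 0.181. The call was also lost, with shared reads counted once, without MIT-BATF replicate 4 (0.88, edgeR adjusted p = 0.0605), MIT-Empty replicate 1 (0.95, adjusted p = 0.0609), MIT-Empty replicate 2 (0.94, adjusted p = 0.0628) or MIT-Empty replicate 4 (0.90, adjusted p = 0.0508), alternatives added after the data were seen. Without MIT-Empty replicates 2 and 4 the difference was 0.87 (edgeR adjusted p = 0.0495). These libraries are the richest in melanoma RNA by deposited counts, and replicate 4 is nested in replicate 2. The gene models Gm23346 on the same strand and Gm43292 on the other overlap the locus, and the library protocol does not mark strand.

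**Figure D1:**
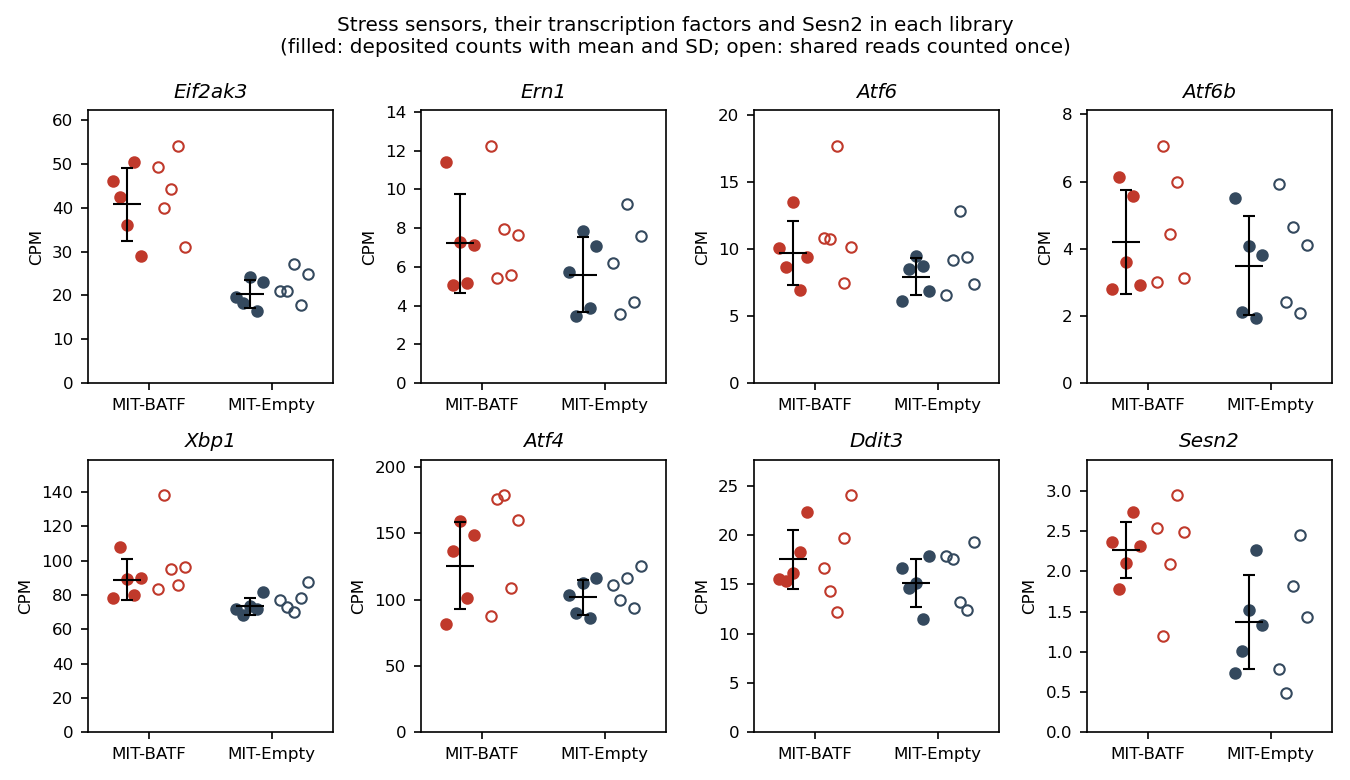
CPM (vertical axis) of the 4 sensors, the 3 transcription factors and Sesn2 in each library, MIT-BATF in red on the left of each panel and MIT-Empty in dark blue on the right. Filled points are deposited counts with the mean and SD of 5 libraries, open points are shared reads counted once; Eif2ak3 is the panel in which the groups do not overlap, with 29.0 to 50.4 CPM in MIT-BATF libraries and 16.5 to 24.2 CPM in MIT-Empty libraries.

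The other sensors did not pass the test, and their levels per length were below that of Eif2ak3 (mean over 10 libraries 1.05 TPM for Ern1, 0.652 TPM for Atf6 and 1.34 TPM for Atf6b, against 5.38 TPM). Ern1, which encodes IRE1-alpha, stood at 11.4, 5.07, 7.28, 5.19 and 7.12 CPM in MIT-BATF libraries, against 5.76, 3.45, 7.86, 3.88 and 7.05 CPM in MIT-Empty libraries (log2 fold change 0.35, 95% interval -0.28 to 0.98, edgeR adjusted p = 0.596; shared reads counted once 0.33, -0.38 to 1.03). MIT-BATF replicate 1 was the highest of all, and the groups overlapped. The mean TPM of Ern1 ran the other way, with 0.776 TPM in MIT-BATF and 1.33 TPM in MIT-Empty libraries, so the direction of this low gene depended on the unit.

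Atf6 encodes the sensor that becomes a transcription factor when cut. It stood at 10.1, 8.68, 13.5, 6.95 and 9.43 CPM in MIT-BATF libraries, against 6.12, 8.52, 9.50, 8.73 and 6.89 CPM in MIT-Empty libraries (0.29, -0.17 to 0.76, edgeR adjusted p = 0.530; shared reads counted once 0.33, -0.26 to 0.91). Its relative Atf6b stood at 2.81, 6.12, 3.62, 5.58 and 2.91 CPM in MIT-BATF libraries, against 5.51, 2.13, 4.09, 1.94 and 3.82 CPM in MIT-Empty libraries (0.26, -0.48 to 1.01, edgeR adjusted p = 0.759; shared reads counted once 0.29, -0.52 to 1.10). Both overlapped between the groups, and the interval of Atf6b ran from 0.717-fold to 2.01-fold.

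The transcription factors that act below PERK and IRE1 had positive fold changes inside the spread of the libraries. Atf4, the factor that PERK favours at the level of translation, stood at 82.1, 136.8, 159.1, 101.4 and 148.8 CPM in MIT-BATF libraries, against 103.3, 89.8, 112.7, 86.6 and 116.5 CPM in MIT-Empty libraries. Its log2 fold change was 0.30 (-0.08 to 0.69, edgeR adjusted p = 0.418; shared reads counted once 0.38, -0.07 to 0.84), with MIT-BATF replicate 1 the lowest library of all and 3 MIT-BATF libraries above every MIT-Empty library. Ddit3, which encodes the stress-induced factor CHOP, stood at 15.5, 15.3, 16.1, 18.3 and 22.4 CPM in MIT-BATF libraries, against 16.6, 14.6, 15.1, 11.5 and 17.9 CPM in MIT-Empty libraries (0.21, -0.16 to 0.57, edgeR adjusted p = 0.581; shared reads counted once 0.11, -0.37 to 0.59). Ddit3 overlaps Mars on the other strand, so its reads cannot be fully separated from those of Mars.

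Xbp1, the target of IRE1 and itself a factor for ER expansion, stood at 78.0, 107.7, 89.2, 80.1 and 89.8 CPM in MIT-BATF libraries, against 71.8, 68.5, 73.3, 72.1 and 81.5 CPM in MIT-Empty libraries. The highest MIT-Empty library lay above 2 of the MIT-BATF libraries. The means were 88.9 ± 11.7 CPM in MIT-BATF libraries and 73.4 ± 4.83 CPM in MIT-Empty libraries (SD, n = 5 each), with a log2 fold change of 0.28 (0.00 to 0.56, edgeR adjusted p = 0.280; shared reads counted once 0.37, -0.01 to 0.75, edgeR adjusted p = 0.483).

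What IRE1 does to Xbp1 mRNA could not be read from these tables. The enzyme removes the 26 bases printed in capitals below, from the longest GENCODE transcript of Xbp1 on chr11 (plus strand), and the lower-case flanks are then joined.
Xbp1: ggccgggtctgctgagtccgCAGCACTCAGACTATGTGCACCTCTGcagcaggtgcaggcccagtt

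Of the 4 annotated Xbp1 transcripts quantified, 3 held both cut sites and none held the joined sequence, so reads of spliced and unspliced mRNA were assigned to the same models. The longest took 90.12% to 93.28% of the gene's reads in MIT-BATF and 88.26% to 94.29% in MIT-Empty libraries. The second, annotated as a retained intron, took most of the rest, and neither share was read as a measure of IRE1 activity.

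Outputs of the PERK pathway did not pass the test. Ppp1r15a encodes GADD34, which returns eIF2-alpha to its unphosphorylated state, and it was the most abundant of them by TPM. It stood at 19.9, 23.2, 27.9, 28.6 and 21.4 CPM in MIT-BATF libraries, against 24.6, 13.1, 26.2, 10.8 and 26.5 CPM in MIT-Empty libraries (0.25, -0.26 to 0.76, edgeR adjusted p = 0.641; shared reads counted once 0.26, -0.30 to 0.81). The low MIT-Empty values were those of replicates 2 and 4, of which the smaller is nested in the larger. Ppp1r15b, its constitutive counterpart, had a log2 fold change of 0.11 (-0.29 to 0.52).

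Sesn2, a stress-induced inhibitor of mTORC1 signalling, had the next fold change after Eif2ak3 and was among the lowest members. It stood at 2.37, 1.78, 2.11, 2.74 and 2.32 CPM in MIT-BATF libraries, against 0.735, 1.01, 1.52, 2.26 and 1.33 CPM in MIT-Empty libraries (0.74, -0.06 to 1.53, edgeR adjusted p = 0.313; shared reads counted once 0.71, -0.34 to 1.77). MIT-Empty replicate 4 lay within the MIT-BATF range and the rest of the MIT-Empty libraries lay below it. Asns, the asparagine synthetase and an ATF4 target, had the lowest value of the arm, -0.24 (-0.74 to 0.26), and 0.02 with shared reads counted once.

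Trib3 and Chac1, which ATF4 and CHOP induce under strong stress, were near the limit of detection and were removed by edgeR's filter on low counts. Trib3 had 1, 13, 10, 3 and 2 counts in MIT-BATF libraries, against 0, 13, 13, 11 and 7 counts in MIT-Empty libraries. Chac1 had 0, 12, 17, 0 and 16 counts in MIT-BATF libraries, against 7, 19, 8, 19 and 6 counts in MIT-Empty libraries. DESeq2, which kept both, gave -1.42 for Trib3 (DESeq2 adjusted p = 0.339) and -1.59 for Chac1 (adjusted p = 0.282), and edgeR without the filter gave -1.34 (adjusted p = 0.365) and -1.46 (adjusted p = 0.301), so neither was called. MIT-Empty replicate 4, the library richest in melanoma RNA (1738 CPM of markers), had the highest CPM of Trib3 (1.78), Chac1 (3.07) and Asns (36.0) of the 10 libraries; the part of melanoma RNA in these values was not tested.

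**Figure D2:**
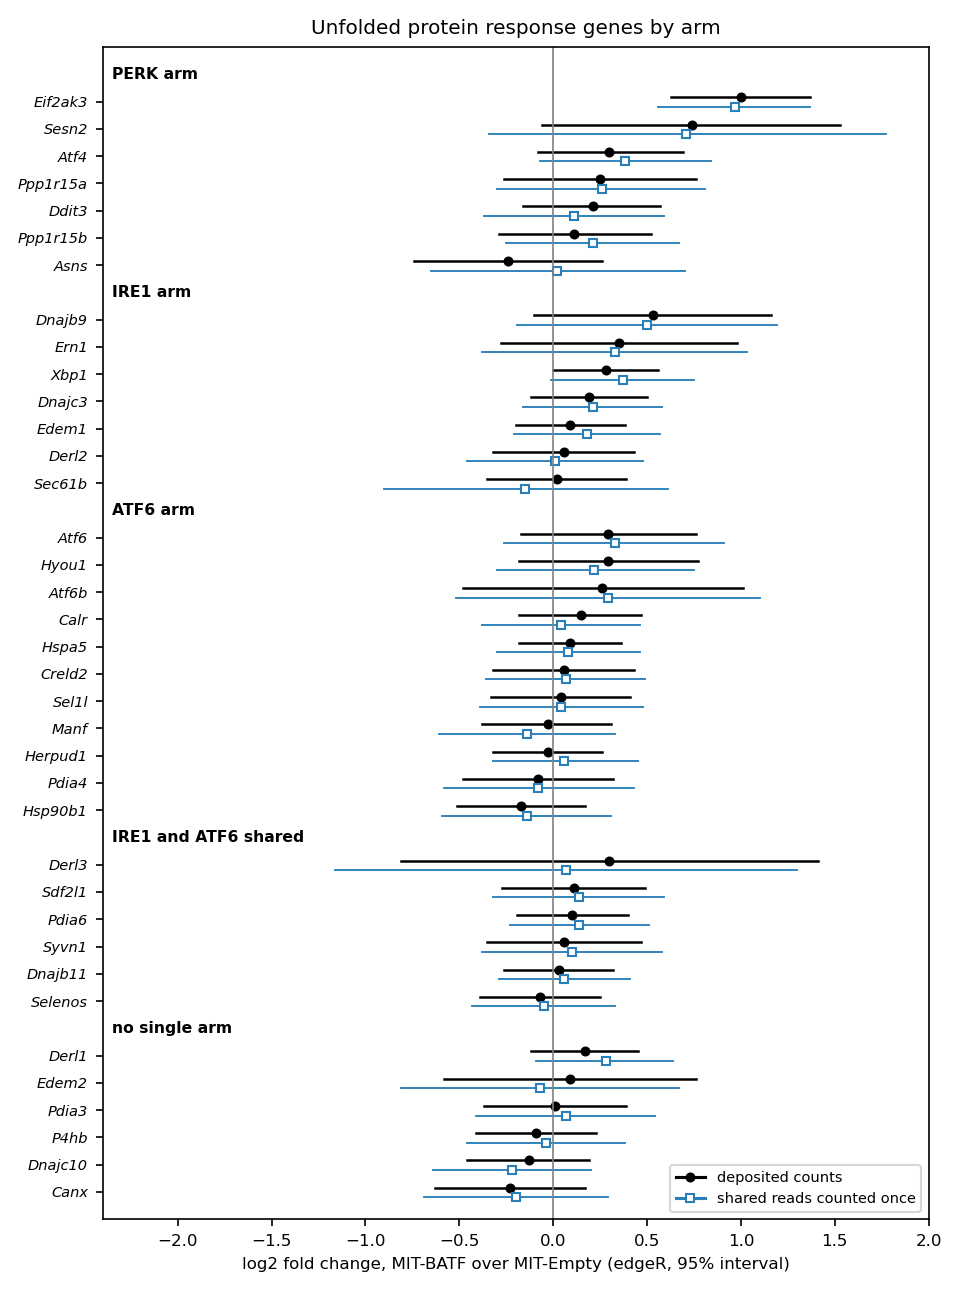
Log2 fold change of MIT-BATF over MIT-Empty (horizontal axis) with its 95% interval for the 37 tested members, grouped by arm; black circles are deposited counts and blue squares shared reads counted once. The interval of Eif2ak3 (0.63 to 1.37) lies right of 0, and 24 of the 37 intervals for deposited counts lie wholly within a 1.5-fold change in either direction.

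The chaperones and folding enzymes numbered 16. None passed the test at an adjusted or unadjusted p below 0.05 in edgeR, and none was called by DESeq2 or limma voom. Their median log2 fold change was 0.04 (0.06 with shared reads counted once), beside 0.01 for all genes tested. For 13 of the 16 the whole 95% interval lay within 1.5-fold with deposited counts. With shared reads counted once the intervals of Hsp90b1, Dnajc10, Sdf2l1 and Manf no longer did. Their summed level was 1668 to 1885 CPM in MIT-BATF libraries and 1613 to 1969 CPM in MIT-Empty libraries.

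Hspa5 encodes BiP, the chaperone whose rise is the usual sign of an active response. It stood at 303.9, 308.6, 345.4, 301.0 and 310.0 CPM in MIT-BATF libraries, against 342.4, 300.6, 289.6, 278.8 and 267.2 CPM in MIT-Empty libraries. The log2 fold change was 0.09 (-0.18 to 0.36, edgeR adjusted p = 0.790), which bounds any difference to between 0.88-fold and 1.28-fold, or 0.812-fold to 1.38-fold with shared reads counted once. Hspa5 also had the smallest spread among libraries of a group of all members, an SD of 0.112 on the log2(CPM + 0.5) scale, against a median of 0.271 over the tested members and 0.365 over all genes.

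Manf, an ER-resident secreted factor and the most abundant member of this group per length (123.0 TPM), stood at 108.9, 139.0, 143.0, 167.9 and 204.5 CPM in MIT-BATF libraries, against 179.4, 144.6, 146.4, 147.7 and 163.9 CPM in MIT-Empty libraries (-0.03, -0.38 to 0.31; shared reads counted once -0.14, -0.61 to 0.33). The MIT-BATF libraries spanned both ends of the range. Hsp90b1 had the lowest value of the ATF6 arm, with 216.0 ± 47.9 CPM in MIT-BATF libraries and 243.8 ± 17.9 CPM in MIT-Empty libraries (SD, n = 5 each; -0.17, -0.51 to 0.17; shared reads counted once -0.14, -0.59 to 0.31). Canx, a lectin chaperone of glycoproteins, had the lowest among genes of no single arm (-0.23, -0.63 to 0.17; shared reads counted once -0.20, -0.69 to 0.29), and its partner Calr had 0.15 (-0.18 to 0.47). Hyou1, a BiP relative that exchanges its nucleotide, had the largest value among chaperones of the ATF6 arm (0.29, -0.18 to 0.77). Pdia3, Pdia4, Pdia6, P4hb, Dnajb11, Dnajc3, Dnajc10, Sdf2l1 and Creld2 lay between -0.13 and 0.19.

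Dnajb9, the BiP co-chaperone ERdj4 and an XBP1 target, had the largest fold change of the IRE1 arm, and a single library carried it. It stood at 83.8, 28.8, 24.5, 29.3 and 31.3 CPM in MIT-BATF libraries, against 31.4, 25.5, 24.3, 33.9 and 22.1 CPM in MIT-Empty libraries (0.53, -0.10 to 1.16, edgeR adjusted p = 0.377; shared reads counted once 0.50, -0.19 to 1.19). The 4 MIT-BATF libraries other than replicate 1 lay inside the MIT-Empty range. In replicate 1 Ern1 was also the highest of the 10 libraries, whereas Pdia3 (90.4 CPM), Pdia4 (13.96 CPM), Hsp90b1 (152.7 CPM), Manf (108.9 CPM) and Dnajb11 (24.2 CPM) were the lowest.

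MIT-BATF replicate 1, the library with 33.2% mitochondrial counts, was the lowest of the 10 libraries for 13 of the 39 members and the highest for 3, and MIT-BATF replicate 3, the deepest library, was the highest for 14. The part of the mitochondrial share and of depth in these values was not tested. Without MIT-BATF replicate 1 the log2 fold change of Eif2ak3 was 0.95 (edgeR adjusted p = 0.00673) and no other member was called.

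**Figure D3:**
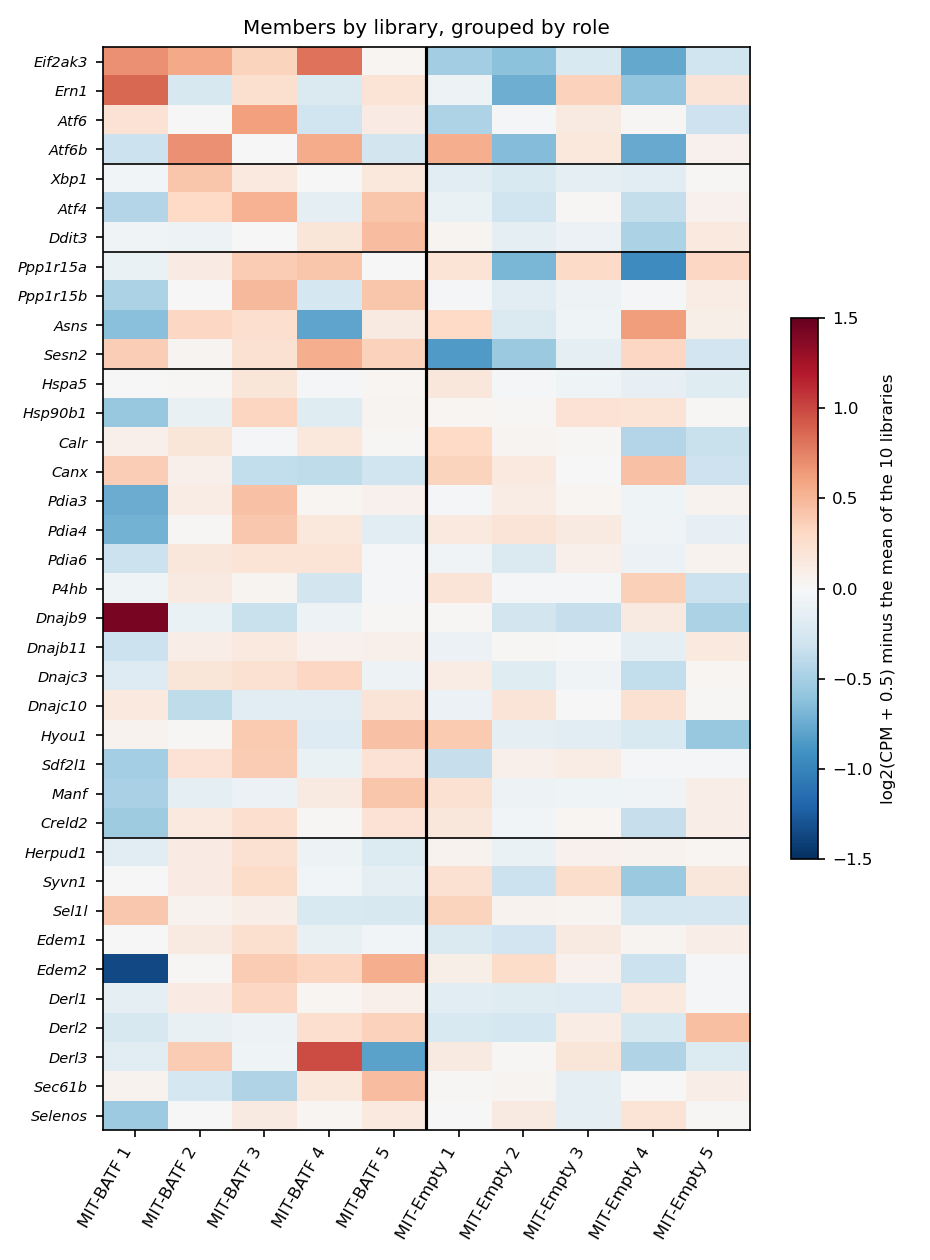
Deviation of each tested member from its mean over the 10 libraries on the log2(CPM + 0.5) scale, red above and blue below, with the 5 MIT-BATF libraries left of the vertical line and the 5 MIT-Empty libraries right of it; horizontal lines part sensors, transcription factors, PERK pathway outputs, chaperones, and degradation and translocation. Eif2ak3 (top row) is split by group, and the MIT-BATF 1 column holds the dark red of Dnajb9 (83.8 CPM) beside a run of blue among the chaperones.

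Genes of ER-associated degradation and translocation, 10 members, did not pass the test either. In edgeR 0 of 10 were below an unadjusted p of 0.05, and 0 were called by DESeq2 or limma voom. Their median was 0.06 (0.05 with shared reads counted once), and for 8 of the 10 the 95% interval lay within 1.5-fold with deposited counts. With shared reads counted once the intervals of Sec61b (-0.90 to 0.61) and Derl1 (-0.09 to 0.64) no longer did.

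Sec61b, a subunit of the translocon through which chains enter the ER, was the most abundant member per length at a mean of 1438 TPM in MIT-BATF and 1495 TPM in MIT-Empty libraries. It stood at 808.7, 648.1, 570.0, 870.3 and 1074 CPM in MIT-BATF libraries, against 788.1, 799.8, 703.5, 783.1 and 833.9 CPM in MIT-Empty libraries (0.02, -0.35 to 0.39). MIT-BATF replicate 3, with shared reads counted once, was left with 203.5 CPM, since it had 24591 reads of the gene and the replicate 5 it contains had 19918, and the log2 fold change became -0.15 (-0.90 to 0.61).

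Of the remaining degradation genes, Derl3 had the largest value among targets shared by IRE1 and ATF6 at no more than 2.15 CPM in any library (0.30, -0.81 to 1.41), and Selenos the lowest (-0.07, -0.39 to 0.25). Derl1, which helps to draw misfolded chains out of the ER, had the largest value among genes of no single arm (0.17, -0.12 to 0.45). Herpud1, Syvn1, Sel1l, Edem1, Edem2 and Derl2 lay between -0.03 and 0.09.

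**Figure D4:**
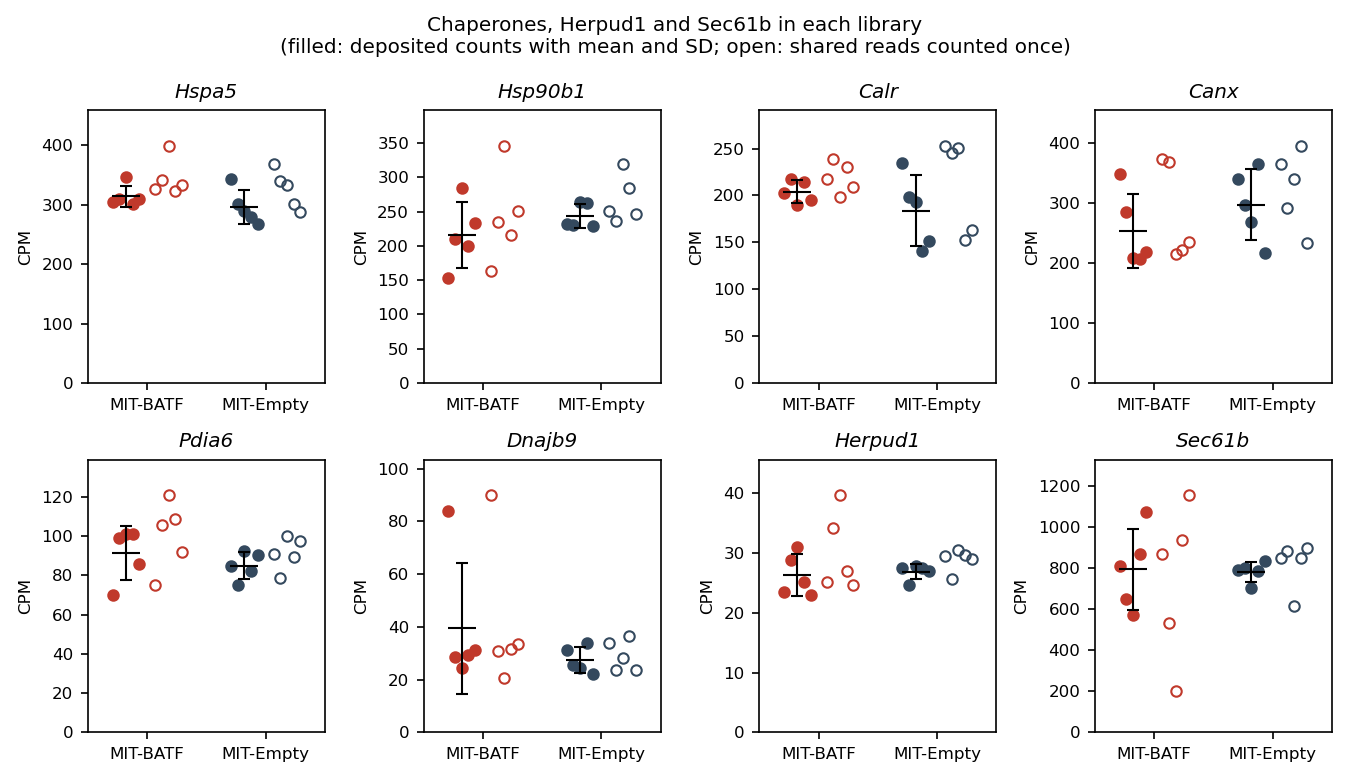
CPM (vertical axis, from 0) of 6 chaperones and folding enzymes, Herpud1 and Sec61b in each library, MIT-BATF in red on the left of each panel and MIT-Empty in dark blue on the right; filled points are deposited counts with mean and SD of 5 libraries, open points shared reads counted once. Hspa5 spans 301.0 to 345.4 CPM in MIT-BATF libraries and 267.2 to 342.4 CPM in MIT-Empty libraries, and the isolated Dnajb9 point at 83.8 CPM is MIT-BATF replicate 1.

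By arm, the median log2 fold change was 0.25 for PERK, 0.19 for IRE1, 0.06 for ATF6, 0.08 for the targets shared by IRE1 and ATF6, and -0.04 for genes of no single arm. With shared reads counted once the medians were 0.26, 0.21, 0.06, 0.09 and -0.05 in the same order. The medians of PERK and IRE1 rested in part on MIT-Empty replicates 2 and 4: without them PERK stood at 0.09 and IRE1 at 0.06. Over all 37 members the median was 0.09, with 28 positive and 9 negative, and 50.7% of all genes tested were positive.

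Most members were bounded by their intervals. The fold change of 35 of the 37 lay within 1.5-fold, as for 80.1% of all genes tested. The whole 95% interval lay within 1.5-fold for 24 members (15 with shared reads counted once) and within 2-fold for 32 (31 with shared reads counted once). The sensors and PERK outputs had the fewest intervals inside 1.5-fold, 0 of 4 and 1 of 4 for deposited counts. This count mixes the size of a change with the width of its interval. The Eif2ak3 interval (1.545-fold to 2.576-fold) lay wholly above 1.5-fold.

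**Figure D5:**
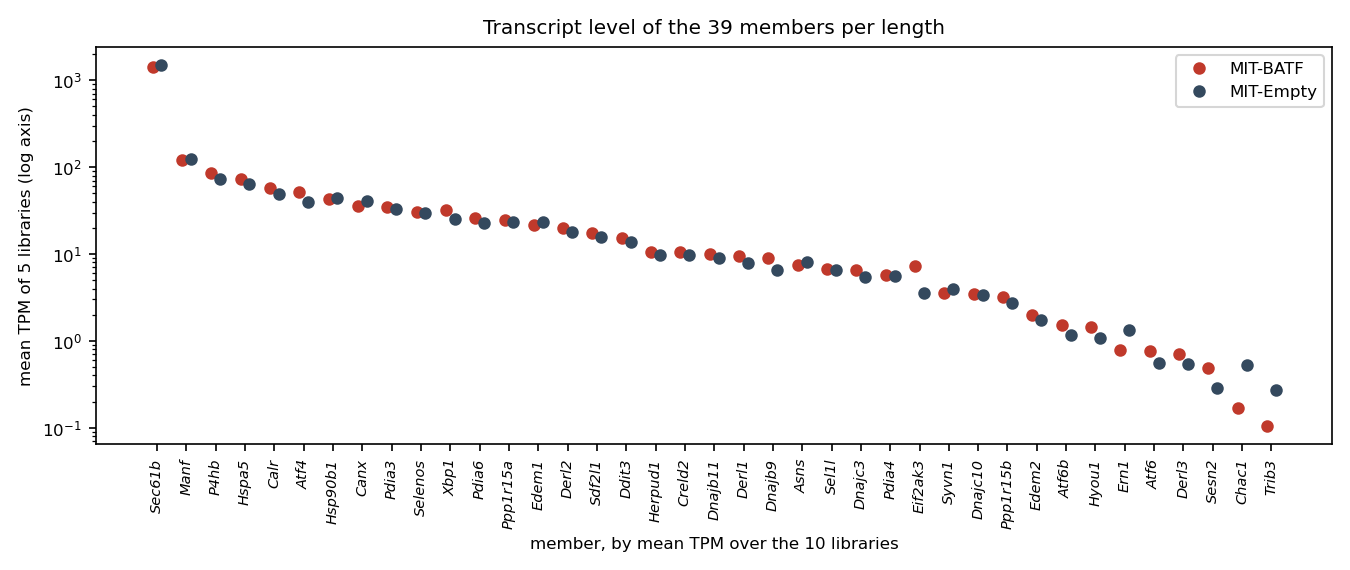
Mean TPM of 5 libraries (log axis) for each of the 39 members, ordered by the mean over the 10 libraries, with MIT-BATF in red left of MIT-Empty in dark blue. Levels run from 1467 TPM for Sec61b to 0.187 TPM for Trib3 over all libraries, the pair of Eif2ak3 points lies apart (7.25 TPM in MIT-BATF, 3.51 TPM in MIT-Empty), and the lowest members on the right, Chac1 and Trib3, were removed by edgeR's filter on low counts.

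Other genes of the pathway were read from lists of the same fit. From a list of other ATF4 metabolic targets 13 were tested, and 0 were called in edgeR. An unadjusted p below 0.05 in edgeR was reached by 6 (2 with shared reads counted once), beside 18.1% and 10.6% of all genes tested. The median of the 13 was -0.40 (range -1.76 to 0.48), and -0.33 with shared reads counted once (-1.22 to 0.54). In both fits 10 of 13 were negative. Phgdh, the entry enzyme of serine synthesis, stood at 50.1 ± 9.47 CPM in MIT-BATF libraries and 68.3 ± 7.49 CPM in MIT-Empty libraries (SD, n = 5 each; -0.44, -0.77 to -0.11, edgeR adjusted p = 0.131; shared reads counted once -0.33, -0.76 to 0.09, adjusted p = 0.641), and Slc3a2, a shared chain of amino acid transporters, at 105.2 ± 14.1 CPM in MIT-BATF libraries and 75.6 ± 6.45 CPM in MIT-Empty libraries (0.48, 0.19 to 0.77, edgeR adjusted p = 0.0587; shared reads counted once 0.54, 0.14 to 0.94, adjusted p = 0.239). Neither passed the threshold in edgeR, and DESeq2 and limma voom each called Slc3a2 higher.

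Of the remaining lists, these had no member called by edgeR: 0 of 9 tested for the other eIF2-alpha kinases and stress factors (1 at an unadjusted p below 0.05 in edgeR), 0 of 12 tRNA synthetases (0), 0 of 16 other folding genes (2), 0 of 20 translocon, signal peptidase and glycosylation genes (0), 0 of 14 other degradation genes (3), 0 of 10 proteases, ATF6 relatives and XBP1 splicing genes (1), 0 of 7 ER stress death genes (2) and 0 of 14 cytosolic heat shock genes (0). Of all genes tested 4.58% were called by edgeR and 18.1% had an unadjusted p below 0.05. In those lists DESeq2 called 3 genes (Ero1l lower, Ubxn4 and Bcl2l11 higher) and limma voom called 3 (Tmx1, Rnf5 and Ubxn4), against 8.22% and 10.7% of all genes in those tools. The ER oxidase Ero1l had the lowest value of the folding list: it stood at 102.4, 101.1, 83.5, 70.6 and 72.7 CPM in MIT-BATF libraries, against 106.6, 186.7, 102.7, 396.4 and 86.7 CPM in MIT-Empty libraries (-1.03, -1.77 to -0.29, edgeR adjusted p = 0.118; shared reads counted once -0.80, -1.60 to 0.01, adjusted p = 0.476). Its highest levels were in MIT-Empty replicates 4 and 2, as were those of the melanoma markers (1738 and 577 CPM). Replicate 4 is nested in replicate 2, so these are not separate observations. With shared reads counted once Ero1l stood at 99.3 CPM in MIT-Empty replicate 2 and 428.5 CPM in MIT-Empty replicate 4. The part of melanoma RNA in this value was not tested. In a list of immediate early genes that tissue dissociation can induce, 1 of 14 was called, beside 4.58% of all genes tested: Egr1 stood at 12.6 ± 4.26 CPM in MIT-BATF libraries and 6.24 ± 0.966 CPM in MIT-Empty libraries (log2 fold change 1.02, edgeR adjusted p = 0.0272; adjusted p = 0.126 with shared reads counted once). DESeq2 and limma voom each called 2 of the 14 higher, Egr1 and Btg2.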

How the data were processed

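The authors aligned reads to mm10 and quantified transcripts with Salmon in the nf-core/rnaseq pipeline. The deposited tables give estimated counts (NumReads), TPM and effective transcript length, another quantity of the deposited files, for 112092 transcripts per library, of which 111787 matched GENCODE vM21 (305 did not, at most 0.089% of counts). For each gene the estimated counts of its transcripts were added and then rounded. MIT-BATF was tested against MIT-Empty with edgeR 4.0.16 (R 4.3.3; TMM scaling, filterByExpr, quasi-likelihood F-test, condition only) over all 10 libraries, and p-values were adjusted by Benjamini-Hochberg across the tested genes. CPM are TMM-scaled, TPM are deposited values summed per gene, and fold changes come from the fit.

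Libraries nested in another were found by comparing all 45 pairs at genes with at least 5 counts in the smaller library, and the fit was repeated with shared reads counted once. Negative differences were set to 0. DESeq2 1.42.0, limma 3.58.1 with voom, other scalings and filters, transcript length offsets, a replicate block and left-out libraries were alternatives. The script was tested on simulated counts. By the study's methods each library is a separate mouse, where reads are not shared.

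The members and all lists were chosen with earlier results of these data known. Named with values in every library were called members, sensors, transcription factors and the most abundant member by TPM of each role, and by value the largest rise and fall of each arm. Hspa5, Sesn2, Trib3, Chac1, Dnajb9, Phgdh, Slc3a2 and Ero1l were given in more detail after their values were seen. Of the members, 13 overlap an annotated gene on the other strand. Promoters are those of RefSeq GRCm38.p6, without the bases after the start. No column of unmapped samples was used.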

Additional observations from a re-analysis of the deposited data

Results flagged for a closer look

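In 6 of 78 groups (39 members in each of the 2 conditions) a single library stood far from the other 4. Chance alone flags about 1 in 20 groups where the libraries of a group are independent. In each group every library except replicate 1 is nested in another or contains one, so that rate need not hold here. No conclusion was drawn from the count of 6. MIT-BATF replicate 1, which is in no nested pair, accounted for 3 of the 6 flagged groups: Dnajb9 at 83.8 CPM (24.5 to 31.3 CPM in the remaining 4), Dnajb11 at 24.2 CPM (31.9 to 33.6 CPM) and Selenos at 37.8 CPM (55.6 to 61.7 CPM). That library also held the highest share of mitochondrial counts, 33.2%, whose part in these values was not tested. Hspa5 stood at 345.4 CPM in MIT-BATF replicate 3, the deepest library (301.0 to 310.0 CPM in the others). Herpud1 stood at 24.7 CPM in MIT-Empty replicate 2 (27.0 to 27.8 CPM in the other MIT-Empty libraries). Chac1 stood at 3.07 CPM, from 19 counts, in MIT-Empty replicate 4 (0.328 to 0.964 CPM in the others), the library with 1738 CPM of melanoma markers; the part of melanoma RNA was not tested.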

How the results depend on the processing

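Eif2ak3 kept its direction in all 35 settings (0.86 to 1.10) and its call in 29, no other member was called in any, and no member was called lower. The count of members called higher fell to 0 without the containing libraries (replicates 2 and 3 of both groups) and, with shared reads counted once, without MIT-BATF replicate 4, MIT-Empty replicate 1, 2 or 4, or MIT-Empty replicate 4 with MIT-BATF replicate 1 (log2 fold change 0.86, edgeR adjusted p = 0.0683); those with shared reads counted once, other than the setting without MIT-BATF replicate 1, were chosen after seeing the data. Of all genes, 540 were called with the deposited counts, 140 with shared reads counted once, 96 without the contained and 15 without the containing libraries, 259 without MIT-Empty replicates 2 and 4, 903 without a filter on low counts, 1258 by DESeq2, 1256 by limma voom, and 287 to 772 with 1 library left out. With shared reads counted once and MIT-BATF replicates 1 to 5 left out in turn the counts were 138, 89, 119, 93 and 150, with MIT-Empty replicates 1 to 5 left out 98, 66, 131, 116 and 133, and without MIT-Empty replicate 4 and MIT-BATF replicate 1 144. The PERK median moved to 0.09 and the IRE1 median to 0.06 without MIT-Empty replicates 2 and 4, and the IRE1 median to 0.06 with transcript length offsets; the cause was not tested. Among the 36 tested members that were never called, 25 changed sign in at least 1 alternative (133 of 1255 values over all members, none called on either side). Replicate numbers were not treated as pairs. Same-number correlations were 0.126, -0.007, 0.221, -0.047 and 0.022, and 2 of 5 MIT-BATF libraries correlated best with their own number. They were taken on deposited counts, in which reads are shared across numbers, so they cannot exclude pairing. With the replicate block Eif2ak3 had 0.98 (edgeR adjusted p = 0.0259), 474 genes were called, and the members called stayed at 1 higher and 0 lower. Depth limits Trib3 and Chac1, which edgeR's filter on low counts removed and which neither DESeq2 nor the fit without that filter called. The intervals of Ern1, Atf6, Atf6b and Sesn2 are wide, and the part of depth in their width was not tested. Intervals over the deposited libraries do not cover reads counted in more than 1 library.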
